A study of Mus musculus with 12 samples.

Results

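Chromatin interactions were examined at 4 mouse genes, the nuclear receptors Nr4a1, Nr4a2 and Nr4a3 and the tyrosine hydroxylase gene Th, in 6 interaction maps. The genes were chosen because the Nr4a receptors are described as partners of nuclear FGFR1 and Th as one of its targets, and they are 4 of 21517 protein-coding genes on chromosomes 1 to 19 and X. The window of a gene was its body with 20 kb on each side, and every interaction with an anchor overlapping that window was used. The cells were E14Tg2A mouse ESC, an established line grown feeder-independent with 100 U/mL LIF, and NCC (neuronal committed cells) made from the same line with 1 μM retinoic acid and without LIF for 48 h. Each cell type was profiled by Hi-C, which records contacts of all chromatin, and by HiChIP, which enriches contacts with an antibody, here against FGFR1 or against CTCF. The 12 samples are 2 biological replicates of each of the 6 combinations, and the authors merged the replicates, which leaves a single library for each combination and no spread between replicates. No difference between cell types or assays could be tested. All intervals and standard errors cover counting error only. The authors removed duplicate reads with HiC-Pro, but without molecular identifiers read pairs from PCR cannot be taken as independent molecules. None of the maps measures RNA, so the labelled cell types could not be checked against marker genes.

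Nr4a receptors are orphan nuclear receptors whose genes are immediate early genes, switched on within minutes to hours by growth factors, depolarization and cAMP. Nr4a1 (Nur77) and Nr4a2 (Nurr1) bind DNA alone or with the retinoid X receptor, and Nr4a3 (NOR-1) binds alone. Nr4a2 is required for the development of midbrain dopaminergic neurons, where it activates Th, the gene of the rate-limiting enzyme of catecholamine synthesis. FGFR1 is a receptor tyrosine kinase that also enters the nucleus, where it has been placed with Nr4a1, Nr4a2, retinoid receptors and the coactivator CBP. CTCF binds a long DNA consensus and stops the cohesin ring that extrudes chromatin loops.

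The 250 bases before each start site are shown because they lie at the point from which all distances here are counted, and because cAMP signals reach these genes through the cAMP response element. They were taken from RefSeq on GRCm38.p6, 5′ to 3′ on the strand of the gene. Capitals mark TGACGTCA, the full element, and its short core, TGACG or CGTCA on the other strand. The windows are chr15:101266596-101266845 (plus strand) for Nr4a1, chr2:57124004-57124253 (minus strand) for Nr4a2, chr4:48045055-48045304 (plus strand) for Nr4a3 and chr7:142899996-142900245 (minus strand) for Th.
Nr4a1: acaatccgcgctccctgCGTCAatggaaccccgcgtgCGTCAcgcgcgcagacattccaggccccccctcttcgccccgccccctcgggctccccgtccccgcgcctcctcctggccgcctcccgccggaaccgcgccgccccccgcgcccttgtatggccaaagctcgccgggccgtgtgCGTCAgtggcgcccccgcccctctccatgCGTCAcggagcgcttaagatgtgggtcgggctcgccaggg
Nr4a2: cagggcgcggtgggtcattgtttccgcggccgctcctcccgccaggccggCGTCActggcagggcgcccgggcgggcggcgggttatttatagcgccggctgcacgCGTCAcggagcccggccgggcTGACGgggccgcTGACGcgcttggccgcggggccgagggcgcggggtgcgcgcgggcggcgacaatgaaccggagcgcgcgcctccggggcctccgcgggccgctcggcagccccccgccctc
Nr4a3: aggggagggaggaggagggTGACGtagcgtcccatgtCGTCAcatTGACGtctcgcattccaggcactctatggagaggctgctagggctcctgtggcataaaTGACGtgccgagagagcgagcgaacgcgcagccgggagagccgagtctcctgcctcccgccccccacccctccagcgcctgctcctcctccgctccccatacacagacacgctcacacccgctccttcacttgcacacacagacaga
Th: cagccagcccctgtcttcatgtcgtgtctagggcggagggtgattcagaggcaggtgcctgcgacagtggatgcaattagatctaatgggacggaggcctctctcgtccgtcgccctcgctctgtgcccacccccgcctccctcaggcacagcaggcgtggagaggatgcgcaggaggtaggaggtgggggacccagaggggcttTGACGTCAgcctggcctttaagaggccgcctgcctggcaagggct

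Each of the 3 receptor promoters held 4 copies of the short core and no full element. Of 32619 RefSeq promoters of this length, 17.9% held at least 1 core on either strand and 0.138% held at least 4. In Nr4a1 all copies were on the other strand, at -233, -213, -69 and -40. In Nr4a2 they were at -200, -144, -123 and -111, and in Nr4a3 they were at -231, -213, -205 and -147. Th held the full element, from -45 to -38, which contains the core on both strands and is found in 1.56% of promoters. The Nr4a monomer site AAAGGTCA, or TGACCTTT on the other strand, was in none of the 4 windows and in 1.35% of promoters. GC content was 74.4% in Nr4a1, 80.0% in Nr4a2, 63.6% in Nr4a3 and 64.4% in Th. These matches are letters in a window, and no factor binding was read from them.

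Anchors in all 6 maps begin and end at GATC, a restriction site. Only the Th promoter of the 4 holds it, at -171, against 41.6% of promoters. On the chromosomes used, the libraries held 20745652 read pairs (ESC) and 21228099 (NCC) in Hi-C, 2662606 and 3203872 in FGFR1 HiChIP, and 1218098 and 1056437 in CTCF HiChIP. Anchors were called separately in each library and covered 927.8 and 925.4 Mb in Hi-C, 576.7 and 680.8 Mb in FGFR1 HiChIP, and 438.2 and 446.1 Mb in CTCF HiChIP. The strength of an anchor is the number of read-pair ends in it, given below also as ends per 1000000 read pairs of its library (EPM). A window sum thus moves with which anchors were called there and how long they are. The covered length given beside each sum is the full length of the anchors that touch the window, with any part outside it.

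The start sites of all 4 genes lay in a Hi-C anchor in both cell types, but fewer lay in a HiChIP anchor. FGFR1 HiChIP had an anchor over the start of Nr4a1 and of Nr4a2 in both ESC and NCC, and none over the start of Nr4a3 or Th in either. CTCF HiChIP had an anchor over 1 of the 4 starts, that of Nr4a1 in NCC. Over all 21517 genes, the start lay in an anchor in 74.2% (ESC) and 73.3% (NCC) of cases in Hi-C, in 49.0% and 52.2% in FGFR1 HiChIP, and in 41.6% and 43.3% in CTCF HiChIP.

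**Figure D1:**
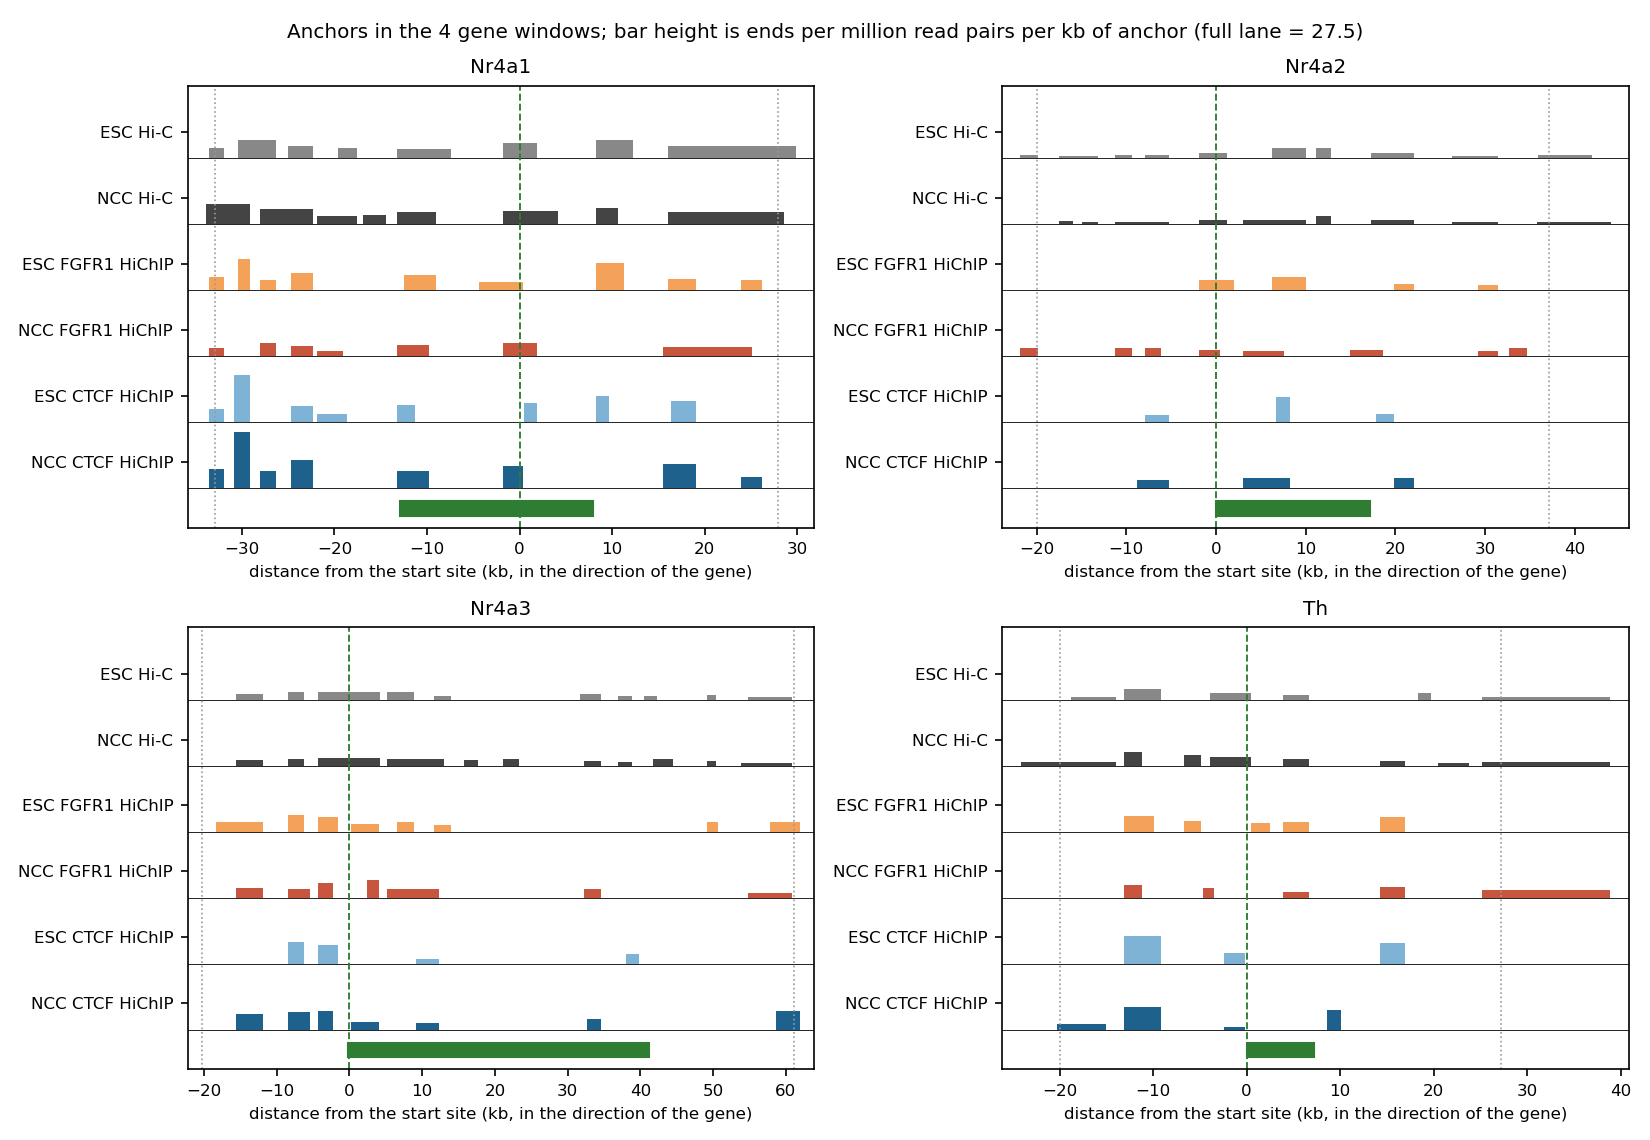
Anchors of the 6 libraries across the 4 gene windows, by distance from the start site in kb in the direction of the gene. Bar height is EPM per kb of anchor on 1 scale for all lanes, the green bar is the gene body, the dashed line the start site and the dotted lines the window. The FGFR1 HiChIP lanes have a bar across the start of Nr4a1 and Nr4a2 and a gap there at Nr4a3 and Th.

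Nr4a1 lies on chromosome 15 from 101253902 to 101274795 on GRCm38, plus strand, and its RefSeq promoter entry puts the start at 101266846, so part of the gene record lies before that start. It had the most interaction ends of the 4 genes in every library. Hi-C held 4408 ± 79.2 ends in ESC and 5011 ± 84.8 in NCC (standard error), over 37.6 and 42.3 kb of anchor in a window of 60.9 kb. FGFR1 HiChIP held 390 ± 23.5 and 338 ± 21.5 ends, over 23.5 and 25.4 kb. CTCF HiChIP held 163 ± 15.2 and 195 ± 17 ends, over 16.4 and 19 kb. In EPM these are 212 and 236 in Hi-C, 146 and 106 in FGFR1 HiChIP, and 134 and 185 in CTCF HiChIP. Per kb of window, Nr4a1 stood at the 92.3 and 96.0 percentile of all gene windows in Hi-C, at 91.7 and 87.1 in FGFR1 HiChIP, and at 83.5 and 95.6 in CTCF HiChIP.

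The Hi-C anchor of Nr4a1 with the most ends was a long one past the gene. It begins 16.1 kb after the start, overlaps Atg101 and Smim41, the first of which encodes an autophagy protein, and held 1537 ends in 13.8 kb in ESC, 34.9% of the window, and 1340 in 12.4 kb in NCC. The anchor over the Nr4a1 start held 482 ends in ESC and 734 in NCC, and per kb it held more, 129.6 and 122.8 ends against 111.7 and 107.7. In FGFR1 HiChIP of ESC the strongest anchor lay just past the gene, chr15:101275086-101278074, with 90 ends, or 33.8 ± 3.97 EPM, above 98.7% of anchors of that library. NCC FGFR1 HiChIP had no anchor there. The FGFR1 anchor over the start held 44 ends in ESC (chr15:101262456-101267229, 16.5 ± 2.86 EPM) and 68 in NCC (chr15:101265061-101268779, 21.2 ± 2.93 EPM), on coordinates that differ. The strongest FGFR1 anchor in NCC was chr15:101282340-101291945 over Atg101, with 117 ends in 9.61 kb. In CTCF HiChIP the strongest anchor was the same in both cell types, chr15:101236033-101237741, 29.1 kb before the start, with 41 ends in ESC and 42 in NCC (33.7 ± 6.52 and 39.8 ± 7.08 EPM).

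Nr4a2 lies on chromosome 2 from 57106830 to 57124003, minus strand, with its start at 57124003. It had the fewest ends per kb of window of the 4 genes in 5 of the 6 libraries, all but ESC Hi-C, where Nr4a3 had fewer. Hi-C held 1456 ± 45.0 ends in ESC and 1234 ± 42 in NCC, over 35.5 and 39.4 kb of anchor in a window of 57.2 kb. FGFR1 HiChIP held 132 ± 13.1 and 175 ± 14.7 ends, over 12.4 and 20.4 kb. CTCF HiChIP held 39 ± 7.28 and 46 ± 7.75 ends, over 6.23 and 11.1 kb. In EPM these are 70.2 and 58.1 in Hi-C, 49.6 and 54.6 in FGFR1 HiChIP, and 32.02 and 43.5 in CTCF HiChIP.

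In ESC, FGFR1 ends at Nr4a2 were gathered in 2 of 4 anchors, both of the gene. An anchor inside the gene, chr2:57113937-57117749, held 56 of the 132 ends (42.4%), and the anchor over the start, chr2:57121939-57125946, held 47 (35.6%). In NCC they were spread over 8 anchors with 15 to 30 ends each. The NCC anchor over the start, chr2:57123596-57125946, is shorter and held 19 ends, 5.93 ± 1.36 EPM against 17.7 ± 2.84 in ESC. The inner anchor has in NCC a neighbour that overlaps it in part, chr2:57116370-57120958, with 30 ends. The Hi-C anchor over the start has the same coordinates in both cell types and held 161 ends in ESC and 119 in NCC. A CTCF HiChIP anchor within the gene, starting at 57115703, held 21 of 39 ends in ESC (53.8%) and 24 of 46 in NCC (52.2%), and no anchor covered the start.

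Nr4a3 lies on chromosome 4 from 48045078 to 48086447, plus strand, with its start at 48045305, and has the longest window, 81.4 kb. Hi-C held 1712 ± 48.7 ends in ESC and 2146 ± 55.1 in NCC, over 34.3 and 41.5 kb of anchor. FGFR1 HiChIP held 287 ± 20.4 and 313 ± 21.3 ends, over 25.5 and 25.9 kb. CTCF HiChIP held 65 ± 9.75 and 121 ± 13.2 ends, over 9.85 and 20.98 kb. In EPM these are 82.5 and 101 in Hi-C, 108 and 97.7 in FGFR1 HiChIP, and 53.4 and 115 in CTCF HiChIP.

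The Hi-C anchor over the Nr4a3 start, chr4:48040958-48049480, held 562 ends in ESC and 575 in NCC, which is 27.1 EPM in both. In the HiChIP maps no anchor covered the start, and in FGFR1 HiChIP anchors of that stretch flanked it. FGFR1 HiChIP of ESC had 47 ends in an anchor that stops 1.5 kb before the start and 32 in one that begins 0.3 kb after it. In NCC these were 42 ends in an anchor that stops 2.3 kb before the start and 38 in one that begins 2.4 kb after it. CTCF HiChIP of ESC also had its strongest anchor before the start, chr4:48040958-48043780, with 27 of 65 ends. In ESC an anchor 6.3 kb before the start, chr4:48036913-48038998, held 14.3 ± 2.55 EPM in FGFR1 HiChIP and 18.9 ± 4.86 in CTCF HiChIP against 6.51 ± 0.61 in Hi-C. These ratios lay at the 66.1 and 71.0 percentile of anchors with the same coordinates and at least 20 ends in both maps, within the middle range of such anchors. The strongest FGFR1 anchor in NCC lay inside the gene, chr4:48050531-48057644, with 85 ends.

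Th lies on chromosome 7 from 142892779 to 142899995, minus strand, with its start at 142899995, and has the shortest window, 47.2 kb. Hi-C held 1367 ± 42 ends in ESC and 1910 ± 51.1 in NCC, over 31.0 and 40.7 kb of anchor. FGFR1 HiChIP held 173 ± 15.5 and 244 ± 18.4 ends, over 12.6 and 22.4 kb. CTCF HiChIP held 96 ± 11.9 and 68 ± 9.59 ends, over 9 and 13 kb. In EPM these are 65.9 and 89.98 in Hi-C, 65.0 and 76.2 in FGFR1 HiChIP, and 78.8 and 64.4 in CTCF HiChIP.

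The CTCF signal at Th came mainly from 1 anchor upstream of the gene. That anchor, chr7:142909123-142913154, ends 9.1 kb before the start and held 56 of 96 ends in ESC (58.3%) and 40 of 68 in NCC (58.8%). At 46.0 ± 7.52 and 37.9 ± 6.96 EPM it was above 99.0% and 98.1% of CTCF HiChIP anchors. FGFR1 HiChIP had anchors within the same stretch, with 60 ends in ESC (chr7:142909845-142913154) and 33 in NCC (chr7:142911228-142913154). At the gene itself, the Hi-C anchor over the start, chr7:142899559-142903872, held 278 ends in ESC and 332 in NCC. FGFR1 HiChIP of ESC had an anchor of 19 ends that begins 0.4 kb inside the gene, chr7:142897512-142899559, which NCC lacked. CTCF HiChIP had an anchor that ends 0.2 kb before the start, chr7:142900163-142902434, with 12 ends in ESC and 3 in NCC. A further FGFR1 anchor downstream, chr7:142883076-142885777, held 43 ends in ESC and 40 in NCC. The NCC sum for FGFR1 rests on 1 anchor at the downstream edge, chr7:142861131-142874874, which held 135 of the 244 ends (55.3%), lies mostly outside the window and was not called in ESC FGFR1 HiChIP.

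The windows were searched for the core of the CTCF consensus, which 2.63% and 2.75% of CTCF HiChIP anchors (ESC, NCC), 2.30% and 2.09% of FGFR1 anchors and 2.88% and 2.86% of Hi-C anchors hold. One match was found in the 4 windows, in an intron of Th, 5.1 kb after the start, at chr7:142894852-142894873 on the plus strand of GRCm38. It is shown with the core in capitals because it is the sole match and lies in an FGFR1 anchor.
Th intron: aattaCCAGCAGGTGGCatcaa
The anchor around it, chr7:142893290-142896090, was called in both Hi-C and both FGFR1 HiChIP maps, with 125 and 168 ends in Hi-C and 30 and 20 in FGFR1 HiChIP (ESC, NCC). Neither CTCF HiChIP map had an anchor over it, and the strong CTCF anchor upstream of Th holds no match to the core.

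Per kb of window, Nr4a1 was the highest of the 4 genes in all 6 libraries. In ESC FGFR1 HiChIP the order in EPM per kb of window was Nr4a1 (2.41 ± 0.145), Th (1.38 ± 0.124), Nr4a3 (1.32 ± 0.0943) and Nr4a2 (0.867 ± 0.0862), and Th and Nr4a3 differed by less than the sum of their standard errors. In NCC FGFR1 HiChIP it was Nr4a1 (1.73 ± 0.110), Th (1.61 ± 0.122), Nr4a3 (1.20 ± 0.0816) and Nr4a2 (0.955 ± 0.0804), and Nr4a1 and Th differed by less than the sum of their standard errors. The place of Th in NCC FGFR1 HiChIP rests on its edge anchor, which held 55.3% of its ends and lies mostly outside the window. In ESC Hi-C the values were 3.49 ± 0.0627 at Nr4a1, 1.40 ± 0.0429 at Th, 1.23 ± 0.0379 at Nr4a2 and 1.01 ± 0.0289 at Nr4a3. In NCC Hi-C they were 3.88 ± 0.0656, 1.91 ± 0.0510 and 1.02 ± 0.0346 at Nr4a1, Th and Nr4a2, and 1.24 ± 0.0319 at Nr4a3.

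FGFR1 HiChIP was then set against Hi-C of the same cell type, to see where the antibody enriched these windows. In ESC the log2 ratio of the window sums was 0.39 at Nr4a3 (95% interval 0.17 to 0.60), -0.02 at Th (-0.29 to 0.25), -0.50 at Nr4a2 (-0.80 to -0.21) and -0.54 at Nr4a1 (-0.71 to -0.36), beside a median of -0.22 over all gene windows. None of the 4 was past 1.5-fold in either direction, which 42.3% of 19500 gene windows were. In NCC the ratio was -1.16 at Nr4a1 (-1.35 to -0.98), -0.24 at Th (-0.47 to -0.01), -0.09 at Nr4a2 (-0.35 to 0.17) and -0.05 at Nr4a3 (-0.26 to 0.16), beside a median of -0.36. Nr4a1 was the 1 gene past 1.5-fold, at 0.447 of its Hi-C level, where 55.5% of 19723 windows were past it. These ratios depend on the anchors that were called. Per covered kb the ESC values became 0.14 at Nr4a1, 1.02 at Nr4a2, 0.82 at Nr4a3 and 1.27 at Th, and the NCC values -0.43, 0.86, 0.63 and 0.62. FGFR1 anchors covered 576.7 Mb (ESC) and 680.8 Mb (NCC) against 927.8 and 925.4 Mb in Hi-C, so this scale raises the ratio over the genome. No median over all windows is given on it. Anchors with the same coordinates and at least 20 ends in both maps had medians of 0.91 and 0.80. That filter leaves out anchors with few ends in the shallower FGFR1 maps, so it raises these medians in part. Values above 0 are not read as a trait of these genes. Nr4a1 was the lowest of the 4 in NCC by either scale.

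For CTCF HiChIP over Hi-C in ESC, 3 of the 4 windows were lower by more than 1.5-fold, Nr4a2 at -1.13 (-1.67 to -0.60), Nr4a1 at -0.67 (-0.94 to -0.40) and Nr4a3 at -0.63 (-1.06 to -0.20), and Th was at 0.26 (-0.10 to 0.62). Of 18553 gene windows, 38.6% were past that fold. Per covered kb, the ratio of those 3 turned to 1.38, 0.53 and 1.17. CTCF anchors of ESC covered 438.2 Mb against 927.8 Mb in Hi-C, so this scale raises the ratio over the genome. No median over all windows is given on it. Of 5975 anchors with the same coordinates and at least 20 ends in both maps, 91.3% were past 1.5-fold, all of them higher. That filter leaves out anchors with few ends in the shallow CTCF map, so it raises this share. Because the scale raises the ratio, the turn to values above 0 is not read as a trait of these genes. In NCC the log2 ratio was -0.36 at Nr4a1, -0.42 at Nr4a2, 0.18 at Nr4a3 and -0.48 at Th, with none past 1.5-fold, beside 45.3% of 18113 windows.

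NCC was compared with ESC within each assay, the comparison that follows the differentiation. In Hi-C the log2 ratio was 0.45 at Th (0.33 to 0.56), 0.29 at Nr4a3 (0.18 to 0.40), 0.15 at Nr4a1 (0.08 to 0.22) and -0.27 at Nr4a2 (-0.40 to -0.14). No window was past 1.5-fold, which 14.2% of 19987 windows were. Per covered kb the Hi-C values became 0.057 at Th, 0.020 at Nr4a3, -0.017 at Nr4a1 and -0.423 at Nr4a2. On the anchors shared by both libraries, Th, Nr4a3 and Nr4a1 were at 0.179, -0.058 and -0.156. In FGFR1 HiChIP the log2 ratio of the window sums was 0.23 at Th (-0.10 to 0.56), 0.14 at Nr4a2 (-0.23 to 0.51), -0.14 at Nr4a3 (-0.42 to 0.14) and -0.47 at Nr4a1 (-0.72 to -0.23), again with none past 1.5-fold, beside 34.7% of 19383 windows. The Th value turned to -0.93 when only anchors with their midpoint in the window were taken, which leaves out the edge anchor of 135 ends. For CTCF the value was 1.10 at Nr4a3 (0.58 to 1.63), which was past 1.5-fold, 0.46 at Nr4a1, 0.44 at Nr4a2 and -0.29 at Th, beside 36.7% of 17526 windows. The Nr4a3 value went with an anchored length of 20.98 kb against 9.85 kb and became -0.04 on the anchors shared by both libraries.

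The change of the FGFR1 over Hi-C ratio from ESC to NCC was -0.63 at Nr4a1 on the log2 scale (-0.88 to -0.37), -0.43 at Nr4a3 (-0.73 to -0.14), -0.22 at Th (-0.57 to 0.13) and 0.41 at Nr4a2 (0.02 to 0.80), beside a median of -0.14 over all windows. At Nr4a1 and Nr4a3 it was below 0 in all 9 other settings, from -0.86 to -0.36 and from -0.48 to -0.09. At Nr4a2 it was below 0 in 4 of the 9, among them -0.16 per covered kb and -0.92 on shared anchors. At Th it was lower than at Nr4a1 per covered kb (-0.65 against -0.57), by anchor midpoints (-1.51) and with 10 kb each side (-1.44), and above 0 in 3 settings, with 0.28 for the gene body of GENCODE.

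Of the 16 window ratios that set FGFR1 HiChIP against Hi-C, or NCC against ESC in either assay, 4 kept their sign in all 9 other settings that were tried. They were the lower FGFR1 than Hi-C signal at Nr4a1 in NCC (-1.16 to -0.43), the lower FGFR1 signal at Nr4a1 in NCC than in ESC (-0.78 to -0.19), the lower Hi-C signal at Nr4a2 in NCC (-0.42 to -0.22) and the higher FGFR1 than Hi-C signal at Nr4a3 in ESC (0.01 to 0.82).

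**Figure D2:**
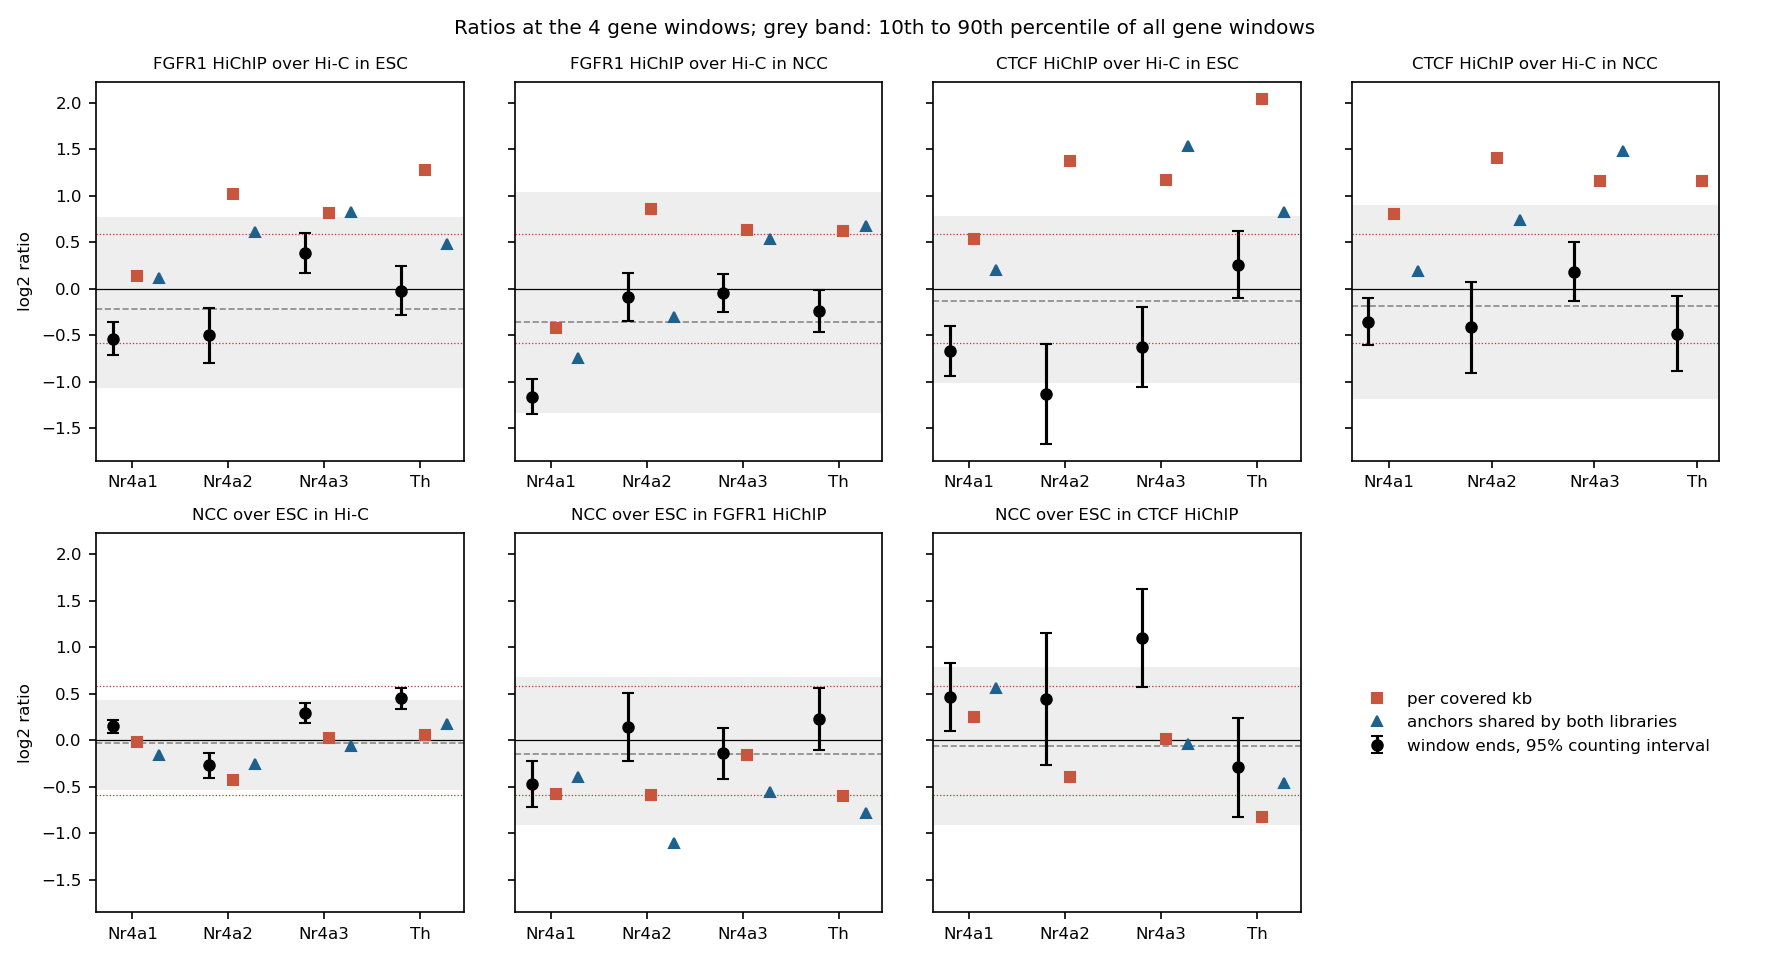
Log2 ratios at the 4 genes for 7 comparisons: circles are window sums with 95% counting intervals, squares the same per covered kb of anchor, triangles the anchors shared by both libraries. The grey band spans the 10th to the 90th percentile of the window sums of all genes, the dashed line is their median and the dotted lines a fold of 1.5. Band and median are a background for the circles only, and none is drawn for squares and triangles. Circles and squares lie on opposite sides of 0 in many places, while Nr4a1 stays below 0 in FGFR1 HiChIP over Hi-C in NCC by all 3 measures.

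Anchors with the same coordinates in both libraries avoid the question of length. Those tested had at least 20 ends in both. This leaves out anchors with few ends in the shallower HiChIP map, so ratios of HiChIP over Hi-C lie above 0 in part through the filter. Of 4 such anchors with at least 20 ends in FGFR1 HiChIP and Hi-C of ESC, the one 6.3 kb before Nr4a3 had a log2 ratio of 1.13 (0.56 to 1.70) and the one with the CTCF core in Th 0.90 (0.28 to 1.53). The inner anchor of Nr4a2 had 0.27 (-0.21 to 0.74), and one 31.9 kb before Nr4a1 had 0.37 (-0.24 to 0.98). Thus 2 of 4 were past 1.5-fold, where 73.4% of 19142 such anchors of the genome were, with a median log2 ratio of 0.91. In NCC 3 of 5 were past it, beside 64.2% of 20065: 1.20 (0.65 to 1.76) for the downstream anchor of Th at 142883076, 1.08 (0.76 to 1.41) for its edge anchor and 0.78 (0.28 to 1.28) for an anchor 11.9 kb before Nr4a3. The Th anchor with the CTCF core had -0.34 (-1.04 to 0.36) in NCC, at the 2.2 percentile of such anchors, and that upstream of Th at 142911228 had -0.16 (-0.72 to 0.40), at the 4.7 percentile. For CTCF HiChIP over Hi-C, both anchors tested in ESC were past the fold, at Th (1.34, 0.85 to 1.83) and Nr4a3 (1.54, 0.76 to 2.31), beside 91.3% of 5975. The 1 anchor tested in NCC, at Nr4a3 (1.41, 0.76 to 2.06), was past it too, beside 93.6% of 3835.

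Between the cell types, none of 12 Hi-C anchors with the same coordinates was past 1.5-fold, beside 4.76% of 60434 over the genome, and the anchor over the Nr4a3 start had a log2 ratio of 0.00 (-0.18 to 0.18). The anchor over the Nr4a2 start had -0.47 (-0.82 to -0.11), at the 6.0 percentile, and that with the CTCF core in Th 0.39 (0.04 to 0.75), at the 93.8 percentile. In FGFR1 HiChIP, 2 of 4 were past the fold and both were lower in NCC, beside 18.6% of 18740. Over the genome 3226 of such anchors were lower and 267 higher, with a median of -0.22, so the direction is the general one. They were the Th anchor with the CTCF core, with 30 ends in ESC and 20 in NCC (-0.85, -1.72 to 0.02), and an anchor 22.4 kb before Nr4a1, with 45 and 33 (-0.71, -1.38 to -0.05). The downstream Th anchor at 142883076 had -0.37 (-1.06 to 0.32), and another anchor before Nr4a1, at 101238768, had 20 ends in ESC and 30 in NCC (0.32, -0.50 to 1.13), at the 93.0 percentile. In CTCF HiChIP neither of 2 was past it, beside 12.0% of 3633, with 0.24 (-0.50 to 0.98) at Nr4a1 and -0.28 (-0.98 to 0.42) upstream of Th.

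Partners were the anchors outside the window and within 1 Mb of the start, taken in bins of 25 kb, with negative distances upstream. Nr4a1 had 1181 read pairs to partners in ESC Hi-C and 1303 in NCC, 102 and 105 in FGFR1 HiChIP, and 40 and 45 in CTCF HiChIP. Nr4a2 had 481 and 332, 50 and 66, and 15 and 16. Nr4a3 had 535 and 711, 73 and 89, and 20 and 38. Th had 560 and 719, 68 and 65, and 29 and 26. Hi-C thus filled most bins, 55 to 74 of the 76 or 77 outside each window, while FGFR1 HiChIP reached 27 to 44 and CTCF HiChIP 7 to 26. No read pair joined 2 of the 4 genes in any library.

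Nr4a2 and Th made most of their contacts on the upstream side, and Nr4a1 did so by a smaller margin in Hi-C. At Nr4a2, 81.7% of partner read pairs were upstream in ESC Hi-C (Wilson 95% interval 78.0 to 84.9) and 77.7% in NCC (72.9 to 81.9), where the mean profile over all genes gives 50%. This placed Nr4a2 at the 98.1 and 96.5 percentile of gene windows with at least 50 partner pairs. In FGFR1 HiChIP the share was 80.0% in ESC (67.0 to 88.8) and 60.6% in NCC (48.5 to 71.5), and in CTCF HiChIP all 15 read pairs were upstream in ESC and 13 of 16 in NCC. At Th the share was 71.6% (67.7 to 75.2) and 69.5% (66.1 to 72.8) in Hi-C, 72.1% (60.4 to 81.3) and 58.5% (46.3 to 69.6) in FGFR1 HiChIP, and 72.4% and 65.4% in CTCF HiChIP. The intervals of ESC and NCC overlap at both genes in each assay. At Nr4a1 it was 58.3% and 53.0% in Hi-C, above a profile of 44.4%, 62.7% (53.1 to 71.5) and 67.6% (58.2 to 75.8) in FGFR1 HiChIP, and 70.0% and 51.1% in CTCF HiChIP. The NCC FGFR1 HiChIP share of Nr4a1 was above those of Nr4a2 and Th, with overlapping intervals. At Nr4a3 the Hi-C share was 53.1% and 58.6%, beside 53.8%. With skews to either side counted, the Hi-C percentiles (ESC, NCC) were 95.6 and 92.2 at Nr4a2 and 85.7 and 80.5 at Th. At Nr4a1 they were 67.1 and 44.3, so its upstream margin was an ordinary one among genes.

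**Figure D3:**
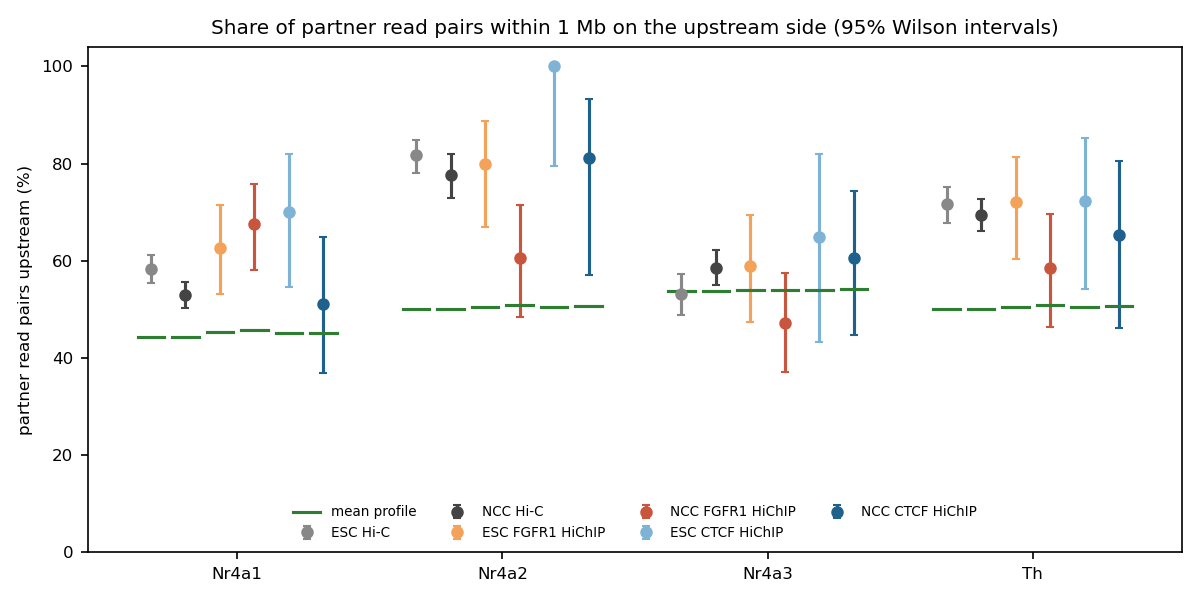
Share of partner read pairs within 1 Mb that lie upstream of the start site, in percent, for each gene and library, with Wilson 95% intervals. Green lines give the share in the mean profile over all genes. Nr4a2 and Th are above the line in Hi-C of both cell types, and the NCC FGFR1 HiChIP intervals of both genes reach it.

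In Hi-C, Nr4a1 and Nr4a3 had more distant contacts than the mean profile in both cell types, and Th did so by less. Partners beyond 500 kb took 27.3% of read pairs at Nr4a1 in ESC Hi-C and 29.5% in NCC, against 15.5% in the profile, and 29.2% and 26.9% at Nr4a3, against 14.9%. The share was 17.1% (14.2 to 20.5) and 17.8% (15.2 to 20.8) at Th, against 13.9%. At Nr4a2 it was 10.2% in ESC (7.8 to 13.2) and 21.7% in NCC (17.6 to 26.4), against 13.9%, so those intervals did not overlap. In NCC FGFR1 HiChIP it was 21 of 105 read pairs at Nr4a1 and 18.0% at Nr4a3, beside profiles of 18.4% and 17.6%, and 24.6% at Th (15.8 to 36.3) and 22.7% at Nr4a2 (14.3 to 34.2), beside 16.6%. All 4 intervals held the profile there.

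The bins at 2 times the mean profile or more were counted among bins with at least 5 read pairs. Where the profile gives few read pairs, a bin with 5 is past that level by construction. At Nr4a2 in NCC Hi-C the profile gave 0.85 to 1.46 read pairs in the bins past it beyond 550 kb upstream. The shares over all genes pool windows of all depths, so these counts do not measure an excess. In ESC Hi-C they were 15 of 57 bins at Nr4a1, 9 of 23 at Nr4a2, 13 of 44 at Nr4a3 and 10 of 33 at Th, where 19.2% of the bins of all genes were past that level. In NCC Hi-C they were 11 of 59, 11 of 17, 13 of 48 and 8 of 33, beside 19.7%. FGFR1 HiChIP is shallow, and few bins had 5 read pairs: 1 of 3, 1 of 1, 3 of 4 and 2 of 3 were past it in ESC, beside 49.5%, and 2 of 5, 1 of 2, 3 of 5 and 1 of 2 in NCC, beside 52.7%. In CTCF HiChIP only Nr4a1 had such bins, 1 of 1 past it in ESC, beside 69.5%, and 1 of 2 in NCC, beside 73.8%.

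At Nr4a1, 11 of the 15 bins past the profile in ESC Hi-C and 10 of the 11 in NCC lay beyond 650 kb downstream, around Krt8 and Krt18 and after them. The bin from 700 to 725 kb held 29 Hi-C read pairs in ESC (5.73 times the profile, exact Poisson interval 3.84 to 8.23) and 39 in NCC (6.93, 4.93 to 9.48). The next bin, with the start of Krt8, held 21 and 22, and that of Tns2, which encodes a tensin of focal adhesions, 22 and 17. The bin with Krt18, the keratin that pairs with that of Krt8 in simple epithelia, held 9 in ESC (1.98, 0.90 to 3.75) and 50 in NCC (9.80, 7.27 to 12.92), with 10.7 and 16.4 kb of anchor in it. FGFR1 HiChIP had 3 read pairs there in ESC and 0 in NCC. The bin with Rarg, a retinoic acid receptor gene, held 14 and 19 Hi-C read pairs (4.98, 2.72 to 8.36, and 5.95, 3.58 to 9.29) and none in any HiChIP map. Nearer to the gene, the bin from -75 to -50 kb was above 2 times the profile in 5 of 6 libraries, with 19 and 28 read pairs in FGFR1 HiChIP (2.92 and 4.26) and 9 and 8 in CTCF HiChIP (3.53 and 2.69). In Hi-C it held 154 and 178, at 1.97 and 2.05. The strongest FGFR1 interaction of Nr4a1 in NCC, with a score of 4, joined its Atg101 anchor to the anchor of Acvr1b, an activin receptor gene, in that bin.

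At Nr4a2 the bins past the profile lay upstream in Hi-C, all 9 in ESC and 10 of 11 in NCC, and most were within 300 kb of the start in ESC, across Gpd2, the gene of the mitochondrial glycerol-3-phosphate dehydrogenase. The bin with the Gpd2 start held 36 Hi-C read pairs in ESC (2.13, 1.49 to 2.95) and 24 in NCC (2.04, 1.31 to 3.04). The strongest interaction in ESC Hi-C, with a score of 10, joined the inner Nr4a2 anchor to chr2:57236970-57240092 at Gpd2, and FGFR1 HiChIP of ESC had a score of 2 between the same inner anchor and chr2:57237497-57240092. The bin from -200 to -175 kb held 40 and 22 Hi-C read pairs (3.92 and 3.14) and was the 1 bin past the level in NCC FGFR1 HiChIP, with 7 (4.91, 1.97 to 10.12). The bin from -250 to -225 kb held 33 and 29 (4.28 and 5.52). Farther out, the bin from -300 to -275 kb held 18 in ESC and 1 in NCC, with 23.1 and 6.6 kb of anchor in it. In ESC FGFR1 HiChIP the bin past the level was nearer, from -75 to -50 kb, with 8 read pairs (2.78, 1.20 to 5.47) against 4 in NCC.

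At Nr4a3, 10 of the 13 bins past the profile in each Hi-C map lay more than 500 kb upstream. In ESC the profile gave 1.05 to 2.24 read pairs in those beyond 600 kb. Any bin with 5 read pairs is past the level there, so this placing depends in part on the filter. The bin with the starts of Alg2 and Sec61b, genes of N-glycosylation and of the translocon of the endoplasmic reticulum, held 15 Hi-C read pairs in ESC (5.85, 3.28 to 9.66) and 27 in NCC (8.03, 5.29 to 11.68). FGFR1 HiChIP held 2 and 5 there, and the NCC value was past the level (10.39, 3.37 to 24.24). The bin from -625 to -600 kb held 9 and 24 in Hi-C, and 5 and 3 in FGFR1 HiChIP, where the ESC value was past it (14.94, 4.85 to 34.86). In that bin FGFR1 HiChIP had an interaction of score 2 in each cell type, from the anchor before the Nr4a3 start to chr4:47434124-47439036 in ESC and from the anchor inside the gene to chr4:47437562-47439036 in NCC. By contrast, the bin from -125 to -100 kb held 2 Hi-C read pairs in each cell type, at 0.10 and 0.07 of the profile, with 1.5 and 4.9 kb of anchor. On the other side, the bin with Stx17, the gene of an autophagosomal syntaxin, held 28 and 37 Hi-C read pairs, near the profile (0.92 and 0.91). In FGFR1 HiChIP it held 6 in ESC (1.61) and 13 in NCC (2.99, 1.59 to 5.12).

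At Th the bins past the profile lay upstream, all 10 in ESC Hi-C and 7 of 8 in NCC, among genes of the imprinted cluster of distal chromosome 7. The bin with the starts of Cd81 and Tssc4 held 35 Hi-C read pairs in ESC (2.53, 1.77 to 3.52) and 60 in NCC (3.39, 2.59 to 4.37), and that of Trpm5, a taste cell cation channel gene, 27 and 40 (2.27 and 2.63). The bin of Cdkn1c, an imprinted cell cycle inhibitor gene, held 7 and 11 (2.81 and 3.48) and that of Phlda2, an imprinted gene of placental growth, 5 and 8. In ESC the profile gave 2.49 and 2.18 in these bins, where any bin with 5 read pairs is past the level. The strongest Hi-C interactions ran to the anchor of Tspan32, a tetraspanin gene, from chr7:142899559-142903872 over the Th start in ESC, with a score of 8, and from an anchor farther upstream in NCC, with a score of 12. FGFR1 HiChIP had another bin past the level in both cell types, that of Kcnq1, an imprinted potassium channel gene, with 5 read pairs each (3.95, 1.28 to 9.22, and 4.15, 1.35 to 9.69). Hi-C held 12 and 9 there, at 1.17 and 0.69 of the profile. The Ascl2 bin, with an imprinted transcription factor gene of the trophoblast, held 9 FGFR1 read pairs in ESC (2.30, 1.05 to 4.36) and 1 in NCC (0.27), with 8.7 and 4.8 kb of anchor, beside 42 and 52 in Hi-C. In CTCF HiChIP the upstream anchor of Th had interactions of score 2 with Trpm5 in ESC and with Tspan32 and Cd81 in NCC.

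**Figure D4:**
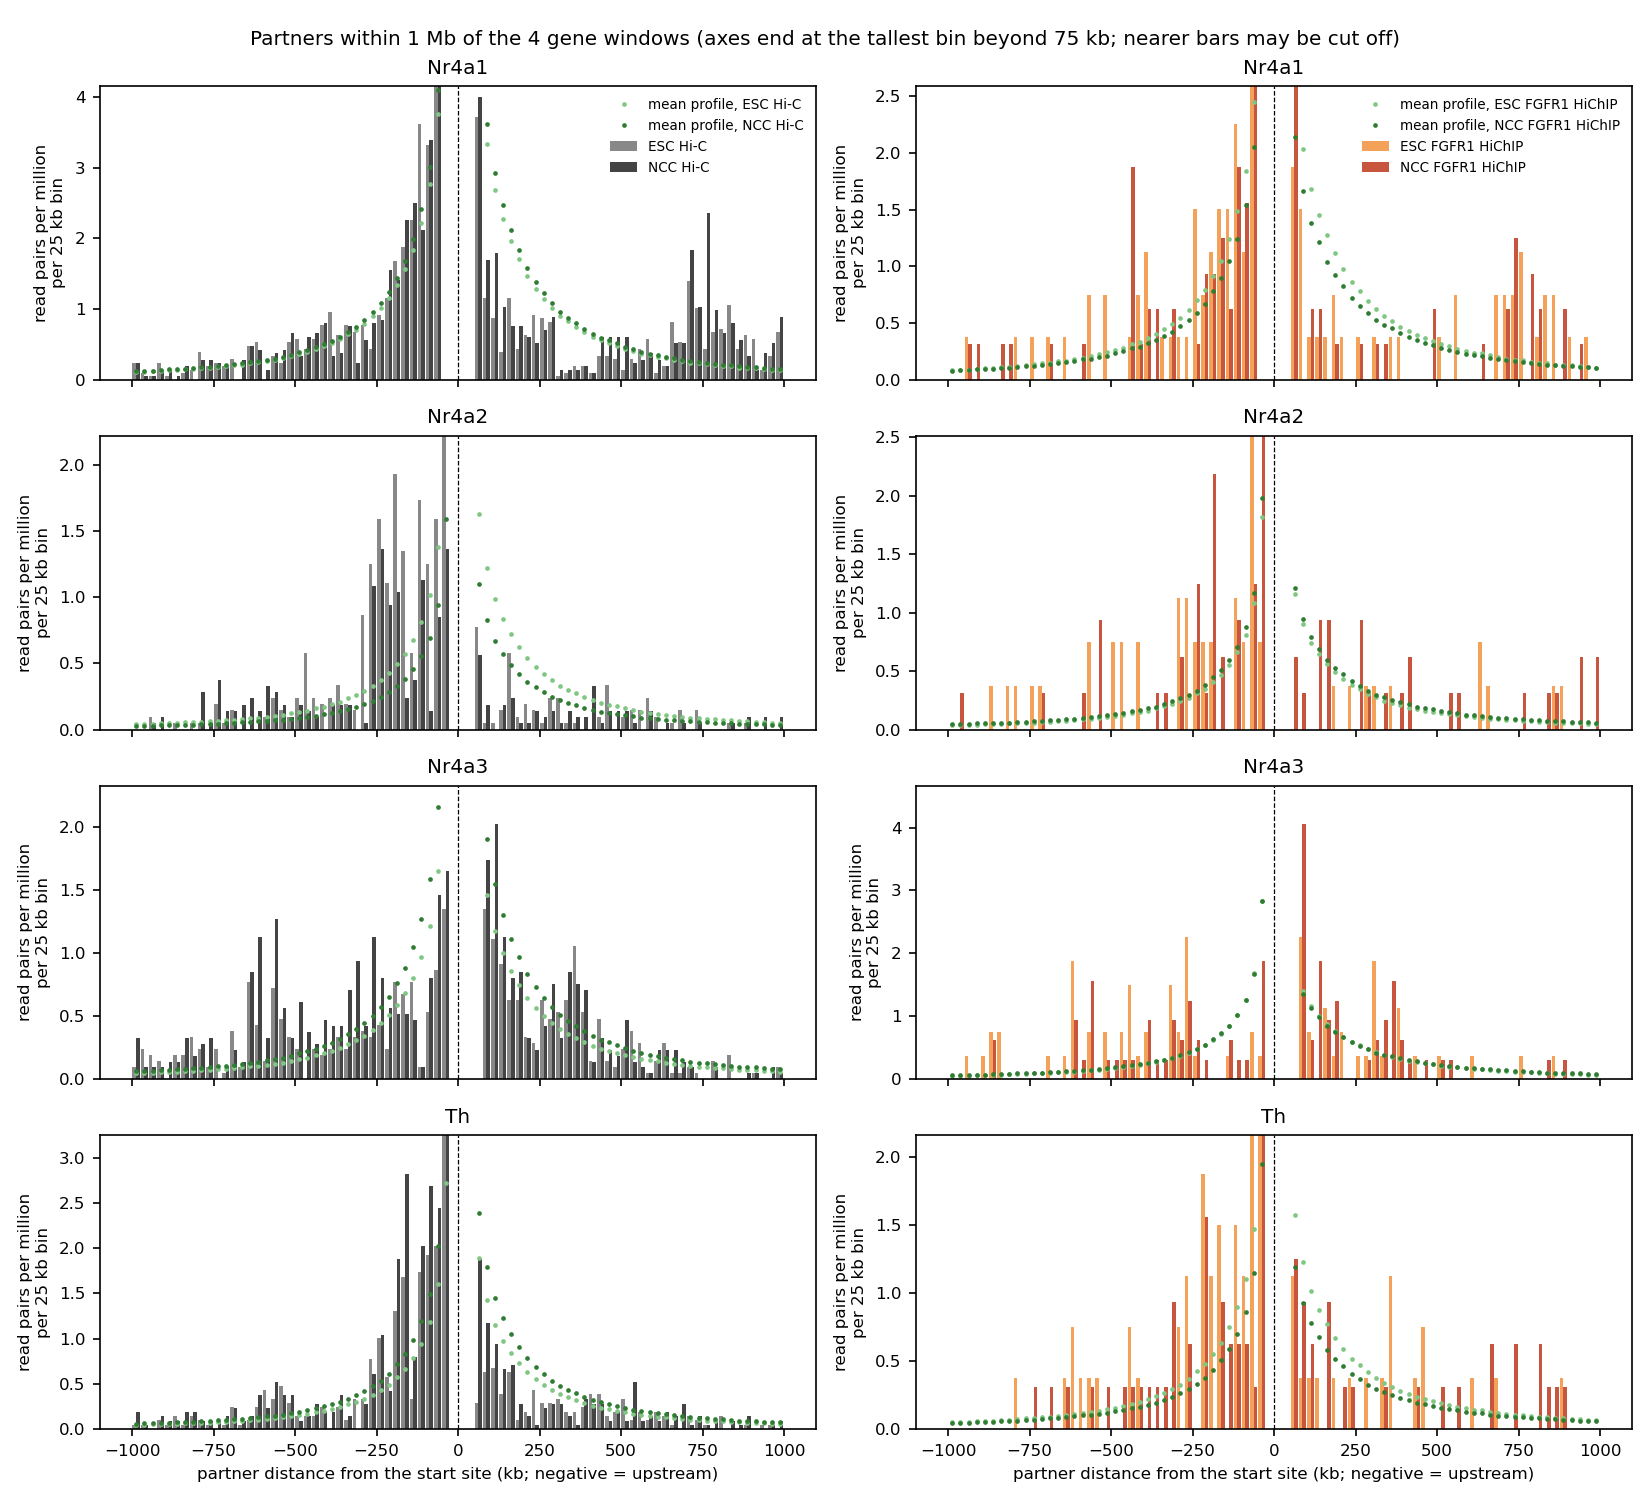
Partner read pairs per 1000000 read pairs of the library, in bins of 25 kb, against distance from the start site in kb (negative is upstream), for Hi-C (left) and FGFR1 HiChIP (right), each axis on its own scale. Bars are ESC and NCC and dots the mean profile over all genes, scaled to the read pairs of the gene. Bars stand above the dots upstream of Nr4a2 and Th, and at 700 kb and beyond at Nr4a1.

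The other genes of the pathway were read from 4 lists. Of the genes of dopamine synthesis and transport, 4 of 9 tested were past 1.5-fold for FGFR1 HiChIP over Hi-C in ESC, 1 higher and 3 lower, with a median log2 ratio of -0.40, where 42.3% of all windows were (13.4% higher and 28.9% lower). Ddc, which makes dopamine from the product of Th, was at 0.67, and Dbh, which makes noradrenaline from dopamine, at -1.47. The dopamine transporter gene Slc6a3 was at -0.93 and Pts, of the cofactor of Th, at -0.92. In NCC 2 were higher and 6 lower of 11 (median -0.84), beside 16.4% and 39.1% of all windows, among them Maoa at 1.90, Pts at -1.63 and Pnmt at -1.47. Of 11 transcription factors of midbrain dopaminergic neurons, 1 was higher and 3 lower in ESC, with En2 at -0.81, and 5 were lower in NCC, beside the same shares of all windows. Between the cell types in FGFR1 HiChIP, 4 of the 11 were lower in NCC and none higher, beside 22.5% and 12.2% of all windows, with Pitx3 at -1.20 and Foxa1 at -1.06.

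Of 12 partners of nuclear FGFR1 and of Nr4a receptors, 5 were lower than Hi-C in FGFR1 HiChIP of ESC and none higher, beside 28.9% and 13.4% of all windows, with Fgf2 at -2.03, Rara at -1.31, Rxrb at -1.11 and Rxra at -1.07. In NCC 1 was higher, Rarb at 0.82, and 4 lower, beside 16.4% and 39.1%, with Rxrb at -1.51. From ESC to NCC in FGFR1 HiChIP 3 were higher, among them Fgf2 at 2.01 and the retinoic acid target Rarb at 1.44, and 2 lower, beside 12.2% and 22.5% of all windows, while none of the 12 was past 1.5-fold in Hi-C, beside 14.2%. Of 10 other immediate early genes, 4 in ESC and 6 in NCC were lower in FGFR1 HiChIP than in Hi-C and none higher, beside 28.9% and 39.1% of all windows lower, with Egr2 at -3.50 and Fosb at -0.84 in ESC and Fosb at -1.38 in NCC. Between the cell types 2 of these 10 were higher in NCC FGFR1 HiChIP, with Egr2 at 2.08, and 1 lower, beside the same 12.2% and 22.5%. The list medians lay below the median of all windows in 7 of the 8 cases of FGFR1 over Hi-C, and that of the midbrain factors in ESC, -0.00, lay above it. Ratios of list genes are window sums, given without end counts, intervals or covered length. Like those of the members, they depend on the anchors that were called. Whether the largest values, such as those of Egr2 and Fgf2, hold per covered kb or on shared anchors was not tested.

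The genes whose pattern over the 6 libraries was most like that of a member were found by the distance between centred log2 levels per kb of window, on other chromosomes and among genes with at least 20 ends in each library. They were Pomt1, St3gal4 and R3hdm4 for Nr4a1 (distances 0.09, 0.12 and 0.15, where the median gene was at 1.12), and Marchf8, Mlst8 and Bricd5 for Nr4a2 (0.17, 0.19 and 0.19, median 1.24). For Nr4a3 they were Bnc1, Fam71f2 and Coa6 (0.14, 0.21 and 0.23, median 1.40), and for Th Serpine2, Scfd2 and Wdr45 (0.07, 0.17 and 0.19, median 1.05). The 4 members were 0.88 to 1.17 apart from each other, near the median gene.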

How the data were processed

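Hi-C and HiChIP for FGFR1 and CTCF were performed by the authors on ESC and NCC, with 2 biological replicates for each of 6 groups. Each deposited score is a count: how many read pairs link 2 anchors. It was made by the authors with HiC-Pro (mm10) and hichipper, which called anchors on all reads, and was neither filtered on q nor normalized. Replicates were merged. Tables were read with pandas 2.3.3 and numpy 2.4.6 (Python 3.11.15). Gene bodies and start sites were those of RefSeq on GRCm38. The ends of a pair within 1 anchor were both counted. Libraries were scaled to their read pairs on chromosomes 1 to 19 and X. Intervals of log2 ratios (95%) count read pairs, not ends, as independent. A window was called past the fold at 1.5 times in either direction with at least 20 ends in both libraries, and a partner bin at 2 times the mean profile with at least 5 read pairs. Steps were tested on simulated data. Genes other than the members were named if past the fold (at most 4 per list and comparison, by size), among the 3 most alike, or in a partner bin past the level or among the 3 fullest beyond 100 kb. The members and lists were chosen with earlier results of these data known. Alternatives were flanks of 10 and 50 kb, scores of at least 2, no pairs within 1 anchor, anchor midpoints, scaling to the median window, folds of 1.25 and 2, and bins of 10 and 50 kb. Ends per covered kb, shared anchors and the GENCODE gene bodies were added after the data were seen. Some genes of the lists are not reported here.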

Additional observations from a re-analysis of the deposited data

How the results depend on the processing

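No paired analysis was possible because the deposited tables merge both replicates of each group. All values that follow are log2 ratios of window sums, unless said otherwise, and the cause of each move was not tested. "FGFR1 over Hi-C" is the HiChIP ratio and "NCC over ESC" the cell type ratio. Leaving out pairs within 1 anchor moved none of the main results by more than their counting error.

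With 10 kb on each side, FGFR1 over Hi-C in ESC became -0.755 at Nr4a1, 0.007 at Nr4a3 and 0.791 at Th, and in NCC -0.644 at Th. NCC over ESC became -0.190, -0.267 and -1.454 in FGFR1 HiChIP at Nr4a1, Nr4a2 and Th, and -0.018 in Hi-C at Th. The change of CTCF over Hi-C at Nr4a3 turned to -0.048.

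With 50 kb, FGFR1 over Hi-C became -0.345 (Nr4a1) and 0.062 (Nr4a3) in ESC and 0.308 (Nr4a2) and 0.000 (Th) in NCC. NCC over ESC became 0.020 (Nr4a1) and -0.052 (Th) in Hi-C, and -0.776 (Nr4a1) and 0.186 (Nr4a3) in FGFR1 HiChIP. Partner bins past the profile numbered 11 and 17 in FGFR1 HiChIP of ESC and NCC, against 7 and 7.

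With the median window set to 0, FGFR1 over Hi-C became -0.314 (Nr4a1) and 0.608 (Nr4a3) in ESC, and -0.800 (Nr4a1), 0.272 (Nr4a2), 0.312 (Nr4a3) and 0.121 (Th) in NCC.

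Per covered kb, chosen after the data were seen, FGFR1 over Hi-C became 0.141, 1.019, 0.816 and 1.274 in ESC at Nr4a1, Nr4a2, Nr4a3 and Th, and -0.426, 0.857, 0.632 and 0.622 in NCC. HiChIP anchors cover less of the genome than Hi-C anchors, so this scale raises HiChIP over Hi-C in general. CTCF over Hi-C in ESC turned to 0.531, 1.376 and 1.172 at the receptors, and its change at Nr4a3 to -0.009. NCC over ESC became -0.017, -0.423, 0.020 and 0.057 in Hi-C, and -0.585 (Nr4a2) and -0.595 (Th) in FGFR1 HiChIP. Over all genes, 368 windows were past 1.5-fold for NCC over ESC in Hi-C, against 2846, and 3006 in FGFR1 HiChIP, against 6720.

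On anchors shared by both libraries, also added after the data were seen, FGFR1 over Hi-C became 0.114, 0.615, 0.820 and 0.485 in ESC, and -0.743 (Nr4a1), 0.536 (Nr4a3) and 0.671 (Th) in NCC. CTCF over Hi-C in ESC turned to 0.199 (Nr4a1) and 1.537 (Nr4a3). NCC over ESC became -0.156 (Nr4a1), -0.058 (Nr4a3) and 0.179 (Th) in Hi-C, -1.110 (Nr4a2), -0.559 (Nr4a3) and -0.783 (Th) in FGFR1 HiChIP, and -0.043 at Nr4a3 in CTCF HiChIP, where the change of CTCF over Hi-C was -0.052. Windows past 1.5-fold numbered 6900 for FGFR1 over Hi-C in NCC, against 10942, and 1541 and 3970 for NCC over ESC in Hi-C and FGFR1 HiChIP.

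With scores of at least 2, FGFR1 over Hi-C became 0.715 (Nr4a3) in ESC and -0.692 (Nr4a2) and 0.290 (Nr4a3) in NCC, and NCC over ESC 0.454 (Nr4a3, Hi-C) and -0.457 (Nr4a2, FGFR1 HiChIP), with 2 and 3 partner bins past the profile in FGFR1 HiChIP. By anchor midpoints, Th became 0.469 and -1.043 for FGFR1 over Hi-C in ESC and NCC, and 0.578 and -0.933 for NCC over ESC in Hi-C and FGFR1 HiChIP. With the GENCODE gene body, added later, Th became -0.479 for FGFR1 over Hi-C in ESC and -0.079 for NCC over ESC in Hi-C.

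At the lower fold tried, 12764 windows were past it for FGFR1 over Hi-C in ESC, and 6670 and 11552 for NCC over ESC in Hi-C and FGFR1 HiChIP. At a fold of 2 these were 3639, 1345 and 2405, and 6055 for FGFR1 over Hi-C in NCC. Bins of 10 kb gave 86 and 86 bins past the profile in Hi-C of ESC and NCC and 4 in ESC FGFR1 HiChIP, and bins of 50 kb gave 24 and 25 in Hi-C, against 47 and 43.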
